A study of Mus musculus with 5 samples.

Results

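The regions described here are the CCT3 eCLIP peaks that the deposited annotation placed in an exon other than the last of a transcript, in mouse GC-2spd(ts) cells. They were chosen by the text of that annotation, which gives a transcript and "exon i of n": a peak belonged to the set where i was below n. This left 2531 of 10916 CCT3 peaks (23.2%, Wilson 95% interval 22.4 to 24.0%), in 790 exons of 681 transcripts. Peaks that the same annotation put in a promoter, a UTR, an intron, a last exon or the only exon of a transcript were not members.

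GC-2spd(ts) is an immortalised line labelled as mouse spermatocyte cells, carrying a temperature-sensitive p53, and all samples came from this 1 line with no further treatment in the labels. In eCLIP, RNA is crosslinked to protein, trimmed with RNase I, immunoprecipitated with an antibody and sequenced beside an input library that skips the antibody. The groups used here are the immunoprecipitation of CCT3 and that of PABPC1, each set against its own input, and a further CCT3 sample called CCT3-2. The 3 peak lists held 10916 CCT3, 14092 PABPC1 and 18650 CCT3-2 peaks, 43658 in all. CCT3-2 carries the same library name as CCT3, so the lists may describe 1 library, and agreement between them is no replicate check. With 1 list per protein, no difference between the proteins has a test across samples. Folds and p-values are the authors' own for each peak. No read totals were used, and the depth under each peak is unknown. Intervals on shares cover counting error only. Neighbouring peaks share a transcript, and with the handling of duplicates not given, reads cannot be taken as independent molecules.

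CCT3 is a subunit of TRiC, the ring-shaped cytosolic chaperonin that folds actin, tubulin and other newly made proteins; it is not a classical RNA-binding protein. PABPC1 coats the poly(A) tail at the 3′ end of messenger RNA and serves here as the comparison. A first exon usually holds the 5′ UTR and the start of the coding sequence, and internal exons are mostly short and coding. A few genes instead carry most of their coding sequence in a single very long internal or first exon. A peak records RNA recovered with the antibody, whether the contact is direct or through a partner.

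Sequences could be read for 6 member peaks, those lying wholly inside a RefSeq window of 250 bases before to 50 after the start of a gene (GRCm38.p6, the build of the files). They are shown to give the kind of RNA that a peak spans, and their choice follows only from where such windows lie. Letters run 5′ to 3′ on the strand of the overlapping CCT3-2 peak, capitals mark the bases that this CCT3-2 peak shares, and the Cic peak with no CCT3-2 counterpart is in lower case on the plus strand.
Lcorl exon 7 of 8, minus strand, chr5:45727686-45727740: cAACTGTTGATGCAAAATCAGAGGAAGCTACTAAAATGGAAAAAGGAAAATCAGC
Gcnt2 exon 1 of 3, plus strand, chr13:40917945-40917999: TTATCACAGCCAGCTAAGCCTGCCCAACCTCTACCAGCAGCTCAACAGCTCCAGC
Cic exon 2 of 21, plus strand, chr7:25270941-25270997: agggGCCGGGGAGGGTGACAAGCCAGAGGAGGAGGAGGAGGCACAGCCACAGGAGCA
Cic exon 2 of 21, plus strand, chr7:25271017-25271052: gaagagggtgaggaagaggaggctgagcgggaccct
Peak1 exon 2 of 4, minus strand, chr9:56241154-56241218: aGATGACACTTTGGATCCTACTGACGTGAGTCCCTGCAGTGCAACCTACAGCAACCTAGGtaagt
B230354K17Rik exon 1 of 3, plus strand, chr17:45433921-45433957: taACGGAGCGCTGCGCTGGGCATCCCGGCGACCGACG

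These peaks differed widely in base content. The Lcorl peak, with a log2 fold of 5.69 over input, was 36.4% G and C, close to the 33.0% of its 300-base window. The B230354K17Rik peak (log2 fold 3.29) was 73.0% G and C in a window of 58.7%. Of the Lcorl peak's 55 bases, 54 were shared with the CCT3-2 list, against 59 of 65 bases in Peak1 and all 55 in Gcnt2. The Peak1 sequence ends in GTAAGT, the letters with which many introns begin, from base 60 of the peak; the CCT3-2 peak stopped before the last 5 of these bases. GTAAGT occurred in 0.800% of 65-base stretches cut from the RefSeq windows, read on both strands, and was found in none of the other 5 sequences. A match of letters is a description and does not place the end of the exon.

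Member peaks gathered in part of the exons that held any of them. The 790 exons held a mean of 3.20 peaks, 389 of them (49.2%) held 1 peak, and 167 held 5 or more. Those 167 exons held 1529 of the 2531 peaks (60.4%), and 58 exons with 10 or more held 812 (32.1%). Within an exon the midpoints of neighbouring peaks lay a median of 175 bases apart, with quartiles of 109 and 315 bases. The distance between the first and last peak gives a lower bound on the length of an exon, since exon ends are not in the tables. That bound had a median of 1569 bases over the 167 exons and reached 6247 bases. Because it is built from the peaks, it cannot show whether exons with many peaks are longer than exons with few. Exons of at least 1000 bases by this measure numbered 154 and held 54.7% of member peaks. Peaks covered a median of 31.0% of the stretch between the first and last peak, so they did not fill it. Peaks of the same list in last exons were gathered alike. Of those 2242 peaks, 62.3% lay in exons with 5 or more and 12.9% were alone in theirs. Last exons held a mean of 3.43 peaks, with neighbouring midpoints a median of 161.5 bases apart.

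**Figure D1:**
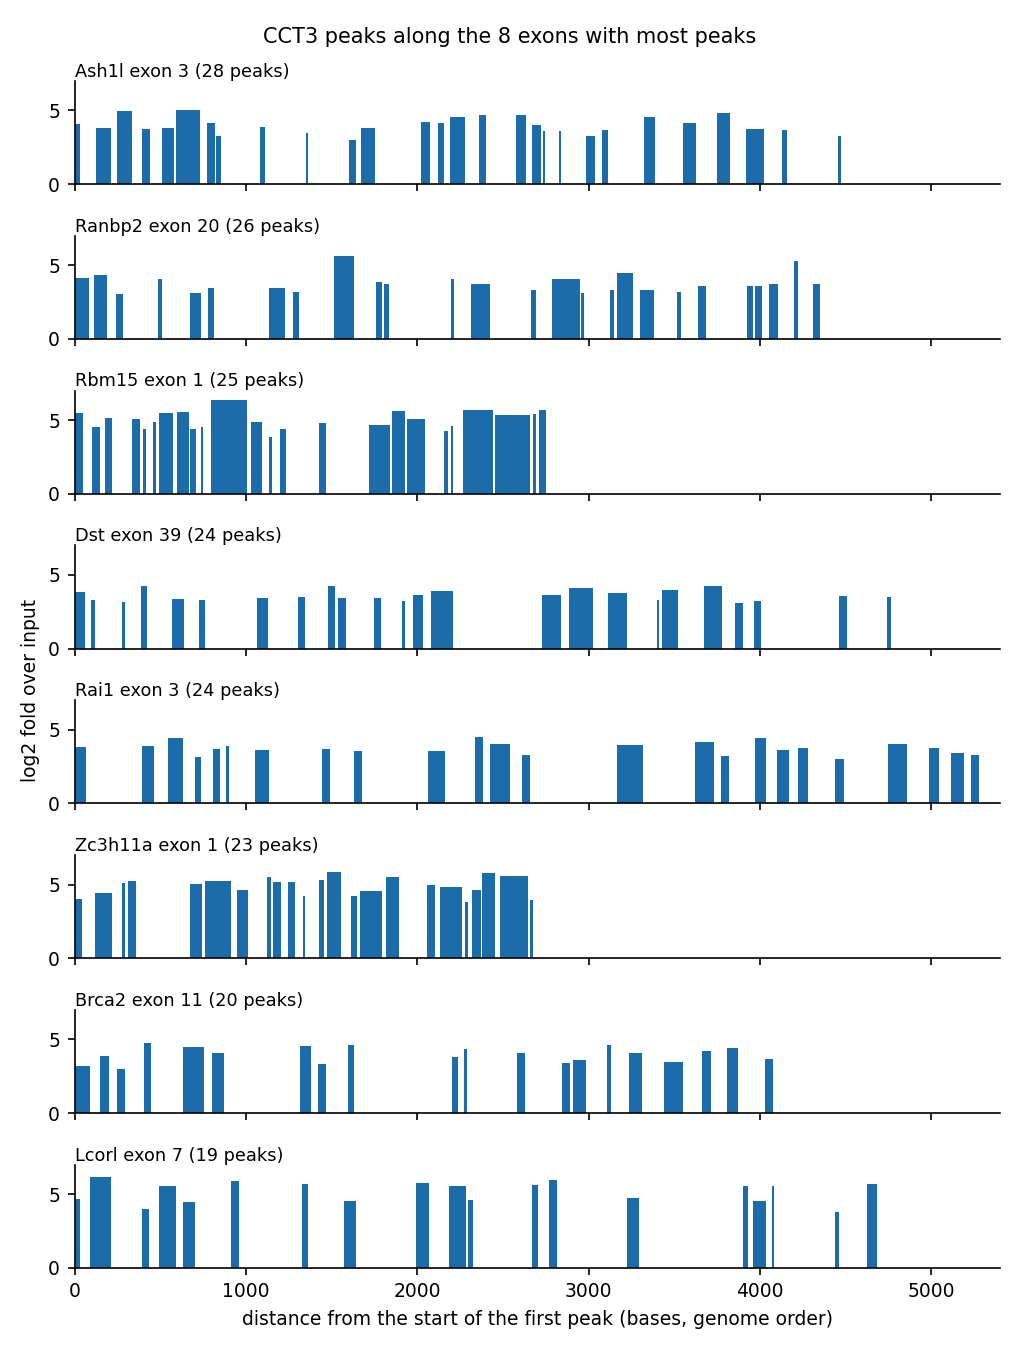
CCT3 peaks along the 8 exons with most of them: each bar is a peak, its width the peak's width and its height the authors' log2 fold over input, against the distance in bases from the start of the first peak. Peaks run along the whole stretch in each exon, and those of Rbm15, Zc3h11a and Lcorl stand higher, with median log2 folds of 5.05, 5.06 and 5.54.

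The exon with most peaks was exon 3 of 28 of Ash1l, a histone H3 lysine methyltransferase, at chr3:88981258-88985729. It held 28 CCT3 peaks with log2 folds from 3.0 to 5.06 (median 3.84). The same stretch held 44 CCT3-2 peaks with a median log2 fold of 3.92 and no PABPC1 peak. In exon 20 of 29 of Ranbp2, a nucleoporin with SUMO ligase activity (chr10:58476351-58480703), 26 CCT3 peaks reached a log2 fold of 5.64, and all 26 overlapped a CCT3-2 peak. Exon 3 of 6 of Rai1, a chromatin-associated transcription regulator (chr11:60185191-60190467), held 24 CCT3 and 46 CCT3-2 peaks. The CCT3 folds there lay between 3.01 and 4.51 on the log2 scale (median 3.72). The stretch was the longest of the 8, at 5277 bases.

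Exon 39 of 103 of Dst, which encodes the cytoskeletal linker dystonin, held 24 CCT3 peaks (chr1:34188136-34192902; median log2 fold 3.51). Another Dst transcript carried 18 more in its exon 23 of 24, with a median of 4.43. Exon 11 of 27 of Brca2, which acts in homologous recombination, is a classical very long coding exon. It held 20 CCT3 peaks over 4079 bases (chr5:150538771-150542849), with log2 folds of 3.02 to 4.78, and 32 CCT3-2 peaks. Exon 7 of 8 of Lcorl, a gene for a transcription factor related to the nuclear receptor corepressor LCoR, held 19 peaks (chr5:45723060-45727740) with log2 folds of 3.78 to 6.18. Its median of 5.54 was the highest among the 58 exons with 10 or more peaks, whose medians began at 3.15.

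The other 2 of the 8 exons were first exons. In exon 1 of 2 of Rbm15, an RNA-binding protein that recruits the m6A methyltransferase, 25 CCT3 peaks lay within 2752 bases (chr3:107330246-107332997) and covered 56.3% of them. Their log2 folds ran from 3.88 to 6.34 (median 5.05), and 51 CCT3-2 peaks in the stretch had a median of 5.11, 12 of them in the promoter class. Exon 1 of 17 of Zc3h11a, which encodes a zinc finger protein of mRNA export, held 23 CCT3 peaks (chr1:133656887-133659560; log2 folds of 3.80 to 5.85) and 66 CCT3-2 peaks. This stretch lies wholly inside Zbed6 (chr1:133655879-133660885), a protein-coding gene derived from a transposon that sits within the Zc3h11a gene. Reads from the 2 genes cannot be told apart there.

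The same uncertainty held for a few other exons. Of the 167 exons with 5 or more peaks, 20 lay inside the span of another protein-coding RefSeq gene, and 8 of these were outside the gamma-protocadherin cluster. The 11 peaks of Cpne1 exon 1 (log2 folds up to 6.0), for example, lay within Rbm12, an RNA-binding protein gene that shares its start with Cpne1. In the stretches of all 58 exons with 10 or more CCT3 peaks the CCT3-2 list, which also holds weaker peaks, had at least as many, from 12 to 66. None of the 58 stretches held a PABPC1 peak. Overlap with PABPC1 was rare in the whole list, at 0.988% of all members and 0.572% of other CCT3 peaks.

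Peaks of 1 exon resembled each other in fold more than peaks of different exons. Over the 1529 peaks in exons with 5 or more, 43.4% of the variance of log2 fold lay between exons, against 38.4% for CCT3 last exons. The SD within an exon had a median of 0.585 for the members, against 0.757 over all 1529 peaks. Peaks alone in their exon had a median log2 fold of 3.53 and a median −log10 p of 5.62. Those in exons with 5 or more had medians of 3.88 and 11.3.

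PABPC1 peaks of the same annotated class were not gathered in this way. The PABPC1 list had 433 such peaks (3.07% of its peaks, 2.80 to 3.37%) in 376 exons, and 76.2% of them were alone in their exon. For CCT3 that share was 15.4% and for CCT3-2 it was 10.9%. In the CCT3-2 list 69.2% of the 3142 peaks of the class lay in exons with 5 or more, above the 60.4% of the CCT3 list. Exons with 20 or more peaks held 23.9% of CCT3-2 and 6.72% of CCT3 peaks. The CCT3-2 list starts at a log2 fold of 2.37 and the CCT3 list at 3.0, so these shares are not at like cutoffs. The promoter class took 13.2% of PABPC1 peaks and 0.925% of CCT3 peaks. Counts and shares of the exon class are therefore not on a like basis between the proteins.

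**Figure D2:**
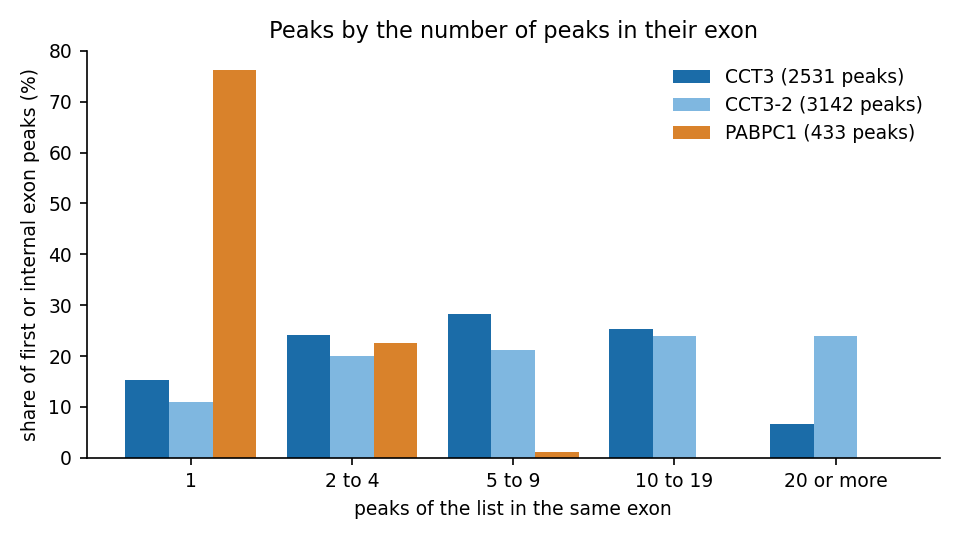
Share of first or internal exon peaks (%) by how many peaks of the same list lie in the same exon, for CCT3, CCT3-2 and PABPC1. Single peaks make up 76.2% of the PABPC1 peaks, 15.4% of the CCT3 peaks and 10.9% of the CCT3-2 peaks. The CCT3-2 list starts at lower cutoffs than the CCT3 list, and the promoter class takes a larger share of the PABPC1 and CCT3-2 lists.

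At the level of genes, the 2531 peaks fell in 609 genes with a RefSeq symbol and 40 transcripts without a matched gene, 649 in all. Protein-coding genes held 94.5% of the peaks, and lncRNA genes held 48 peaks. Of 21900 protein-coding RefSeq genes, 590 had a member peak, which is 2.69% of all such genes. The CCT3-2 list reached 2.54% and PABPC1 peaks of the class 1.26%. Both of these lists put more of their peaks in the promoter class than the CCT3 list, so the shares are not on a like basis. A single member peak was present in 266 genes. Of the 383 genes with 2 or more, 282 (73.6%) had all of them in 1 exon, and the annotated transcripts had a median of 10 exons. The 10 genes with most peaks held 10.9% of the members and the 100 with most 50.6%. Member genes spanned a median of 51180 bases on the genome, against 17146 for all protein-coding genes, and the part of gene length in any count below was not tested.

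By number of member peaks the order was led by Dst with 51, Ash1l with 31, Brca2 with 27 and Ranbp2 with 26. All 51 Dst peaks overlapped a CCT3-2 peak, and they lay in 4 annotated exons. Casp8ap2, which encodes the histone mRNA processing factor FLASH, had 25 peaks in 2 exons, as many as Rbm15 had in 1. Next came Rai1 with 24, then Zc3h11a and Zfhx4, a zinc finger homeobox gene, with 23 each. Dnmbp, an exchange factor for the GTPase Cdc42, had 20, and Lcorl, the helicase gene Helz2 and Bcorl1, a relative of a BCL6 corepressor, had 19 each. No member peak of these genes overlapped a PABPC1 peak, which only 0.988% of all members did.

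Of the genes with most member peaks, Rbm15 was also among those of the 12 highest folds. The top peak (log2 fold 6.85, −log10 p 52.8) lay in exon 1 of 2 of a transcript of Tug1 (chr11:3646926-3647005), the long noncoding RNA named in the title of the series. Tug1 had 7 member peaks, with log2 folds of 3.27, 4.08, 4.93, 5.11, 5.40, 5.87 and 6.85. Most of its CCT3 peaks were not members: 34 were annotated to a last exon. All 7 members overlapped a CCT3-2 peak, and every counterpart was in the promoter class. Tug1 thus had no CCT3-2 peak of the first or internal exon class. The counterpart of the top peak had a log2 fold of 7.24.

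Exon 8 of 25 of Tnrc6b, an Argonaute partner in miRNA silencing, followed at 6.63 (chr15:80879751-80879796). It was the highest of 13 peaks in that exon, whose median was 3.87. Ntmt1, an N-terminal methyltransferase gene, reached 6.56, the sorting nexin gene Snx33 6.51 and the zinc finger gene Zfp101 6.48. Map4, which encodes a microtubule-associated protein, reached 6.42 and had 18 member peaks with a median log2 fold of 5.21, all overlapping the CCT3-2 list. The gamma-protocadherin gene Pcdhga5 and Prrc2b, a gene for a coiled-coil RNA-associated protein, both reached 6.42. A transcript without a gene ID on chromosome 9 had a peak at 6.38 (chr9:111273542-111273593), in a stretch of 10 peaks inside the gene Epm2aip1. Pcdhgc4 at 6.36 and Rbm15 at 6.34 completed the 12 highest with a peak of another unmatched transcript at 6.39. All 12 of these peaks overlapped a CCT3-2 peak, where the log2 folds were between 5.18 and 7.24.

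By exon rank, the median log2 fold over peaks was highest in exon 1. Without the gamma-protocadherin cluster the exon 1 median was 4.08, level with the 4.08 of exon 7. Exon 1 held 489 members (19.3%, 17.8 to 20.9%) in 143 exons, exon 2 held 442 and exon 3 held 318. The median log2 fold was 4.29 in exon 1 and 3.71 in internal exons, and in the CCT3-2 list 4.24 and 3.55. From exon 2 to exon 10 the medians of single ranks lay between 3.63 and 4.08, with no step from each rank to the next. On a scale of exon ranks from 0 for the first exon to 1 for the last, the members had a median position of 0.346. In transcripts of 2 exons the first exon is also the next to last, and such transcripts held 156 of the 489.

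The gamma-protocadherin cluster on chromosome 18 held 110 of the 489 exon 1 members (22.5%). Protocadherins are cell adhesion proteins of neurons, and each gamma gene has its own large first exon, spliced to constant exons shared by the cluster. Of 21 protein-coding gamma genes, 17 had a member peak in the CCT3 list and 17 in the CCT3-2 list. Over all protein-coding genes the shares were 2.69% and 2.54%. The 102 CCT3 peaks of these genes, all in exon 1, had a median log2 fold of 4.94 and reached 6.42 in Pcdhga5, and 96 of them overlapped a CCT3-2 peak. Pcdhgc4 held 12 peaks (log2 folds 3.65 to 6.36), Pcdhgb2 11 (3.62 to 5.74) and Pcdhga5 9 (4.97 to 6.42). None of 14 Pcdha genes, built on the same plan, had a CCT3 peak of any class. Without the gamma genes and their pseudogene, the median of exon 1 was 4.08 and its share of members 15.7%. The gamma exons are close copies of each other, and no source used here says how reads shared between copies were placed, so counts of single genes are uncertain.

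Outside the cluster, 56 exon 1 members lay in transcripts without a gene ID, and some genes held many in a long exon 1. Irs1, the insulin receptor substrate, held 18 peaks in exon 1 of 2 (log2 folds 3.02 to 4.93), and its relative Irs2 held 12 (3.20 to 4.80). Ttc13 held 10 with a median of 5.04. These genes were picked as examples after their values were seen. Exon 1 is also where the promoter class matters: 49.5% of the exon 1 members with a CCT3-2 counterpart met a CCT3-2 peak of the promoter class, against 20.7% of internal members. The CCT3-2 table applies that class to 16.2% of its peaks and the CCT3 table to 0.925%, so counts of exon 1 peaks are not comparable between them.

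Against other classes of CCT3 peaks, the members had lower folds than intronic peaks but smaller p-values. Their median log2 fold was 3.80 (quartiles 3.37 and 4.39), with 4.03 in last exons, 3.85 in 3′ UTRs and 4.36 in introns. The median −log10 p was 9.31 for members, 8.60 in last exons, 7.82 in 3′ UTRs and 6.04 in introns. A −log10 p of 10 or more was listed for 46.5% of members (44.6 to 48.5%) and for 22.6% of intronic peaks (21.2 to 24.1%). The order was the same in the CCT3-2 list, where the median log2 fold was 3.62 in the class and 4.04 in introns and the median −log10 p 9.83 and 5.41. Members had a median width of 61 bases and intronic peaks 60. The highest value the tables list, a −log10 p of 400, was reached by 12 members, of which 5 were in Rbm15, 4 in Zc3h11a, 2 in Srrm2 and 1 in Anp32b.

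**Figure D3:**
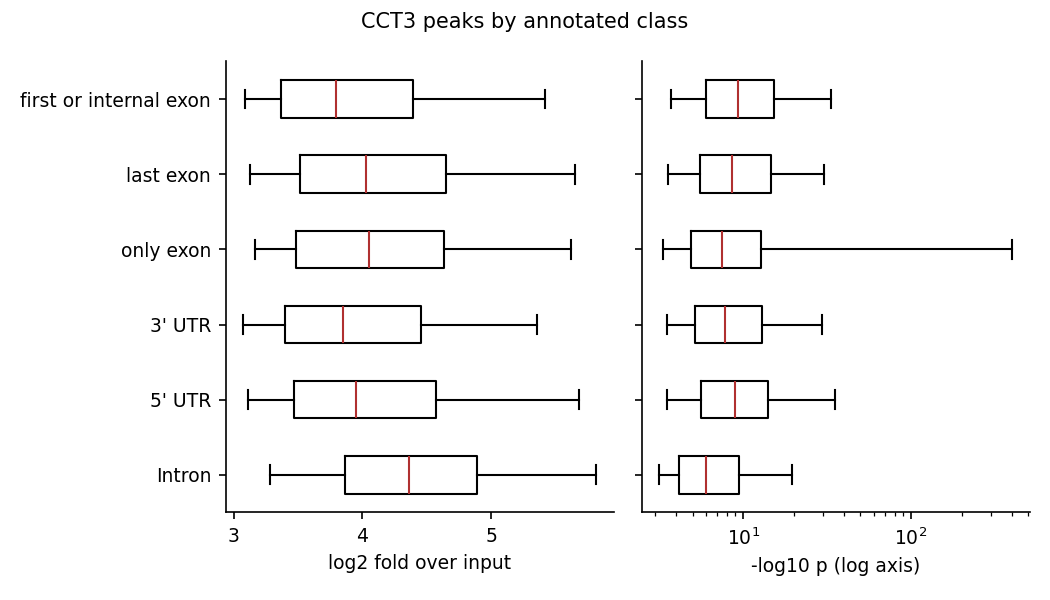
Authors' log2 fold (left) and −log10 p (right, log axis) of CCT3 peaks by annotated class: the line is the median, the box the quartiles and the whiskers the 5th and 95th percentiles. First or internal exon peaks have a median log2 fold of 3.80, below the 4.36 of introns, and a median −log10 p of 9.31, above their 6.04.

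Member genes also had CCT3 peaks of other classes. Of the 649 genes, 301 (46.4%) had at least 1, whereas 10.2% of all protein-coding genes had a CCT3 peak of any class, members included. A last exon peak was present in 120 genes (18.5%, against 2.60% of all protein-coding genes), an intronic peak in 105 (16.2%, against 2.91%) and a 3′ UTR peak in 103 (15.9%, against 2.90%). These shares are given as descriptions, beside the longer median span of member genes given above. The last exons of the whole list held 2242 peaks. Just before the last exon, 545 members lay in the next to last exon, with a median log2 fold of 3.90.

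The gene lists with the highest shares of genes with a member peak were centrosome and kinetochore proteins, chromatin modifiers, and DNA repair factors. Among 32 genes for centrosome and kinetochore proteins, which organise and attach the spindle, 13 had a member peak (40.6%, 25.5 to 57.7%), read against 2.69% of all protein-coding genes; 12 had one in the CCT3-2 list. Their 68 peaks included 16 in Cenpf, which sits on kinetochores (log2 folds 3.03 to 5.40), and 14 in Knl1, the kinetochore scaffold (3.11 to 5.43). Cep164, needed for cilia, had 7 (3.63 to 5.70), and Cenpc1, of the inner kinetochore, had 2 (3.65 and 4.89). These 32 genes had a median span of 63647 bases.

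Of 60 chromatin modifiers and remodellers, 24 had a member peak (40.0%, 28.6 to 52.6%) and 26 had one in the CCT3-2 list, 21 genes in both. The highest log2 folds were 5.65 in Kdm5a, a histone H3 demethylase with 3 peaks, 5.06 in Ash1l, 4.62 in the methyltransferase gene Nsd1 and 4.58 in Arid4b, of a histone deacetylase complex. The group spanned a median of 87130 bases per gene. DNA repair and replication factors had a member peak in 10 of 36 genes (27.8%, 15.8 to 44.0%), 9 of them also in the CCT3-2 list. Besides Brca2, Rif1, which acts on replication timing and break repair, held 11 peaks (3.02 to 5.30). Bard1, the partner of BRCA1, held 4 and the helicase gene Helb 2, both reaching a log2 fold between 4.52 and 4.54.

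Cytoskeletal linkers and giant proteins had member peaks in 3 of 31 genes (9.68%, 3.35 to 24.9%), with 75 peaks in all. Over all protein-coding genes the share was 2.69%. Next to the 51 of Dst, its relative Macf1 held 12 (3.45 to 5.56) and the membrane adaptor gene Ank2 12 (3.15 to 5.48). All 3 genes also had CCT3-2 peaks of the class. The list had a median gene span of 158364 bases, the longest of the lists. The ubiquitin ligases, with a median span of 99078 bases, also had 3 of 34 genes with a member peak (8.82%, 3.05 to 23.0%). Among these were Birc6, with a highest log2 fold of 3.22, and Fbxw7, with 3.03.

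In lists of RNA metabolism and protein folding, between 0 and 2 genes had a member peak. Among 25 SR and related splicing factors 2 had one, both with very long serine and arginine-rich coding exons. Son, a nuclear speckle protein, held 16 peaks (3.08 to 4.81) and Srrm2, a speckle scaffold, held 7 (3.07 to 3.78). Hnrnpl was the only one of 32 hnRNP and nuclear RNA-binding protein genes, with 1 peak at 5.76 and none of the class in CCT3-2. Cnot4, a ligase associated with the deadenylase complex, was the only one of 32 poly(A) and deadenylation genes, at 3.07. Translation factors had 2 of 43, Eef1d (2 peaks, up to 3.92) and Eif5b (3.31). None of 8 TRiC subunit genes and none of 23 TRiC substrate and prefoldin genes had a member peak in either CCT3 list, with upper interval limits of 32.4% and 14.3%. The intervals of the lists in this paragraph all include the 2.69% of all protein-coding genes.

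The remaining lists were similar. Polycomb repressive complex 2 genes had 1 of 11 (Jarid2, 3.86), cell cycle regulators 1 of 34 (Mki67, encoding Ki-67, with 13 peaks up to 3.91), and p53 and apoptosis genes 2 of 24 (Bcl2 4.67 and Sesn1 4.00). Of 35 long noncoding RNAs, Tug1 and Airn, which silences imprinted genes, had member peaks. Airn had 3, up to 3.28, beside 31 intronic CCT3 peaks. For the labelled cell type, 0 of 40 meiotic spermatocyte markers had a member peak, 2 had a CCT3 peak of any class and 21 had a PABPC1 peak. Over all protein-coding genes the shares were 2.69% for a member peak, 10.2% for any CCT3 peak and 22.9% for a PABPC1 peak. Spermatid, Leydig cell and fibroblast markers had 0 of 15, 0 of 7 and 0 of 19, and Sertoli cell markers 1 of 11 (Inhba, 3.59). Peak lists do not measure expression, so a missing peak does not show that a marker is absent.

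**Figure D4:**
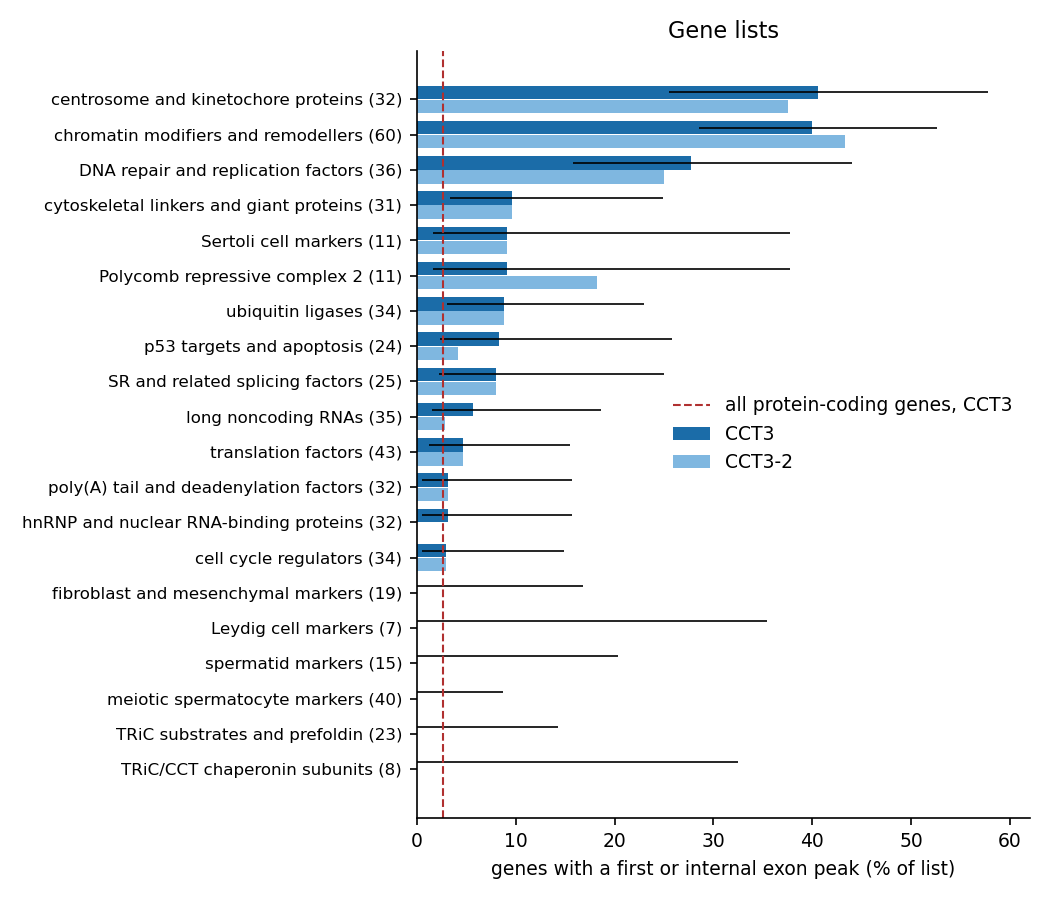
Share of each gene list (%) with a first or internal exon peak in the CCT3 list (dark bars, with Wilson 95% intervals) and the CCT3-2 list (light bars); list sizes are in parentheses and the dashed line marks the 2.69% of all protein-coding genes in the CCT3 list. Centrosome and kinetochore proteins (40.6%), chromatin modifiers (40.0%) and DNA repair factors (27.8%) lead in the CCT3 list.

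Zinc finger genes, which also have long exons, were mostly reached elsewhere. Of 465 Zfp, Zbtb, Zkscan and Zscan genes, 45 had a member peak (9.68%, against 2.69% of all protein-coding genes), with 150 peaks and a median log2 fold of 3.82. In all, 211 of the 465 had a CCT3 peak of some class, which 10.2% of all protein-coding genes had. Mouse zinc finger genes often end in the long exon that codes for the fingers, which the set leaves out by its rule. The part of this in the counts was not tested.

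The CCT3-2 list held most of the members again. Of the 2531 members, 2285 (90.3%, 89.1 to 91.4%) overlapped a CCT3-2 peak by at least 1 base, against 89.7% of the other CCT3 peaks. The difference of 0.537 percentage points had a Newcombe 95% interval of -0.833 to 1.82, so the members were not separable from other classes in this. In 1669 cases the counterpart lay in the same exon of the same transcript, and in 605 it was a promoter class peak. The log2 folds of the overlapping peaks had a Spearman correlation of 0.879 over the 2285 pairs, which share the library name and whatever input was used. The median difference was -0.05 (CCT3-2 minus CCT3), with quartiles of -0.23 and 0.11. The 246 members without a counterpart had a median log2 fold of 3.41, against 3.83 for the rest. Of members with a −log10 p of 10 or more, 96.3% had a counterpart, and of those below 5, 77.2%.

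**Figure D5:**
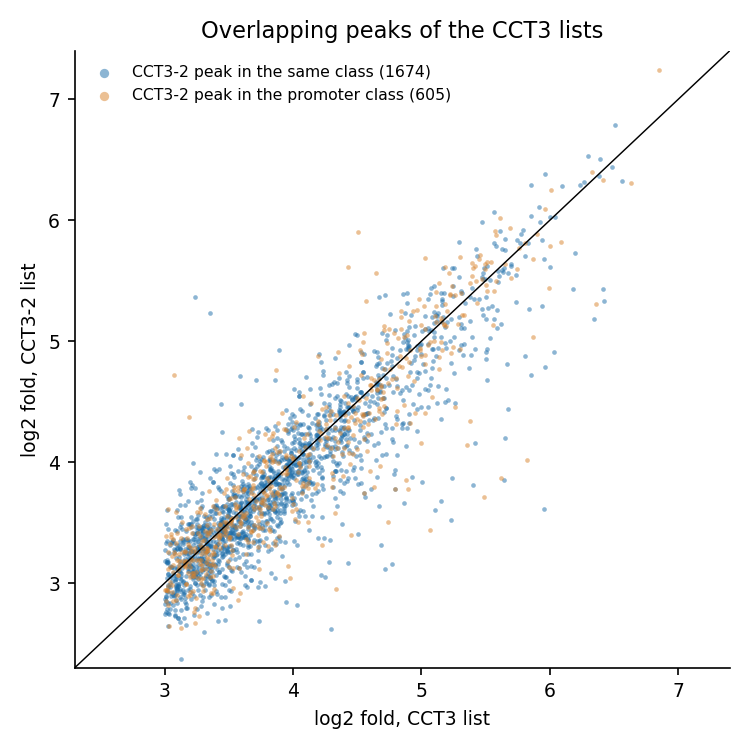
Authors' log2 fold of member peaks in the CCT3 list (horizontal) and of the overlapping CCT3-2 peak (vertical), coloured by the class of the CCT3-2 peak; the line marks equal values. Points follow the line in both colours, 1674 with a counterpart of the same class and 605 with one in the promoter class.

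Some exons with many peaks were nevertheless missing from CCT3-2. In 4 of the 167 exons with 5 or more peaks no peak overlapped a CCT3-2 peak: exon 2 of 3 of Zhx1 with 8 peaks, exon 2 of 5 of Slfn9 with 7, exon 2 of 3 of Pwwp2b with 6 and exon 4 of 8 of Lats1 with 5. Zhx1 is a zinc finger and homeobox repressor gene and Lats1 a kinase gene of the Hippo pathway. The folds were not low, reaching 5.07 in Slfn9, a gene of the Schlafen family, with a −log10 p of up to 34.9, and 4.86 in Pwwp2b, a gene for a chromatin-binding protein. Peaks in Zhx1 and Lats1 reached 4.53 and 4.42. In 95 of the 167 exons every peak had a counterpart. Conversely, 68.0% of the 3142 CCT3-2 peaks of the class overlapped a CCT3 peak. Of the exons with a member peak 69.9% recurred in the class in CCT3-2, and 72.1% of the CCT3-2 exons were in the CCT3 list.

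Overlap with PABPC1 was rare. Of the 2531 members, 25 (0.988%, 0.670 to 1.45%) overlapped a PABPC1 peak, against 0.572% of the other CCT3 peaks. The difference was 0.415 percentage points (0.0472 to 0.902), and against intronic peaks 0.864 (0.492 to 1.34). At a log2 fold of at least 4 and a −log10 p of at least 5 in both lists, 1 of 897 members (0.111%) and 5 of 3681 other CCT3 peaks (0.136%) overlapped, and the difference turned to -0.024 (-0.228 to 0.499). As deposited, it had the other sign against CCT3 peaks in 3′ UTRs, where 1.68% overlapped (-0.688, -1.43 to -0.0189). The overlapping members were peaks alone in their exon in 21 of 25 cases. Of the 389 members alone in their exon 5.40% overlapped (3.56 to 8.11%), and of the 1529 in exons with 5 or more, 2 did (0.131%, 0.0359 to 0.476%). The overlapping members were wide, with a median of 114 bases against 61 for all members. The part of width in the overlap was not tested.

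Ranked by the smaller of the 2 folds, the first pair lay in exon 1 of 2 of a transcript without a gene ID (chr16:3865643-3865762), with log2 folds of 6.39 for CCT3 and 7.14 for PABPC1. Anp32b, an acidic nuclear histone chaperone gene, had 2 overlapping members. The one in exon 5 of 7 (chr4:46469883-46470008) had log2 folds of 3.99 and 4.39, with a −log10 p of 400 in the CCT3 list and 49.8 in the PABPC1 list. Upf3b, a nonsense-mediated decay factor, had 3.91 and 5.15 in exon 7 of 10. Ppp1r12a, which targets myosin phosphatase, had 3.58 and 3.64, Rtf1, a transcription elongation factor, 4.29 and 3.51, and the chaperone gene Hsp90aa1 3.41 and 3.79. In Rtf1 and Hsp90aa1 the PABPC1 peak was of the promoter class. At the level of whole genes, 31.9% of member genes had a PABPC1 peak somewhere (28.4 to 35.6%), read against 22.9% of all protein-coding genes. Among the 158 genes with an exon of 5 or more member peaks the share was 31.6%. Of the 158, 3 had a PABPC1 peak in a first or internal exon, which 1.26% of all protein-coding genes had.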

How the data were processed

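eCLIP peak lists of CCT3 and PABPC1 immunoprecipitations, each against its input, were analysed as deposited. The tool bcl2fastq 2.20 and the build mm10 are named in the submitters' processing notes. Not given in the sources used here are how reads were aligned, how peaks were called and annotated, and how duplicates were handled. The deposited log2 folds and −log10 p values are the authors' own, and the CCT3 table names them in its header. The other tables leave these columns unnamed, and their ranges were taken to show the same 2 quantities. CCT3 and PABPC1 peaks have both values at 3 or more; CCT3-2 peaks start at 2.37 in log2 fold and 1.40 in −log10 p, so CCT3-2 holds weaker peaks. Depth is unknown.

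Genes were taken from the transcript and gene ID in the annotation text, with RefSeq symbols (GRCm38.p6); the gene listed as nearest differed for 14.5% of members. An exon is a transcript and a rank. Overlaps used bedtools 2.31.1, a minimum of 1 base and no strand, which the CCT3 table lacks. Shares have Wilson and differences Newcombe 95% intervals (Python 3.11.15, numpy 2.4.6, pandas 2.3.3, scipy 1.17.1; figures with matplotlib 3.10.9). No p-value was computed. The counting was tested on simulated data.

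The members and the 20 gene lists were chosen with earlier results of these data known. Named genes are Tug1, the 12 genes with most members, those of the 12 highest folds, the 8 exons with most peaks, up to 4 genes per list by fold, and up to 6 by the smaller fold in overlaps with PABPC1. Protocadherins, zinc finger genes, exons missing from CCT3-2 and genes within other genes were looked at after values were seen. Alternatives were a stricter threshold, merging, covered bases, distance from the start, reciprocal overlap and the CCT3-2 list. Some results are not reported here.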

Additional observations from a re-analysis of the deposited data

Results flagged for a closer look

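In data that the comparisons above do not use, the strand of CCT3-2 peaks, 9 of 2882 CCT3-2 peaks of the class in genes of known strand lay opposite to their gene (0.312%, Wilson 95% interval 0.164 to 0.592%), more than the 3 that a count of 0 allows. Kdm1a, Prkag2 and Pus1 had 1 each. The CCT3 table gives no strand for its peaks.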

How the results depend on the processing

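Against 38 alternative values of 13 results, 17 stayed within the main value's 95% interval, 1 SD of the peaks (for medians) or 1.5 times (for counts); no value has a test. At a log2 fold of at least 4 and a −log10 p of at least 5, 897 members remained in 336 exons and 295 genes, 19.6% of the CCT3 peaks. Of these, 29.2% lay in exon 1, 50.5% in exons with 5 or more peaks and 18.1% in the 10 genes with most; their median log2 fold was 4.63, 81.7% overlapped CCT3-2 and 0.111% PABPC1, and the difference from other CCT3 peaks in overlap with PABPC1 turned to -0.024 percentage points. In the CCT3-2 list the class made up 16.8% of peaks (17.0% at both values of at least 3), 13.2% of it in exon 1, 69.2% in exons with 5 or more peaks and 14.8% in the 10 genes with most. More than 1000 bases from the listed start, members were 20.3% of peaks, with 13.1% in exon 1. Without Pcdhg genes 15.7% lay in exon 1. Overlap with CCT3-2 was 77.8% at 50% reciprocal overlap and 66.3% with counterparts of the same class only. The cause of these shifts was not tested. For the 14 gene lists with a member, 12 of 28 alternative counts stayed within 1.5 times. The difference in overlap with PABPC1, the exon 1 share without Pcdhg, the class at both values of 3, the values per exon and those for exons with 5 or more peaks were chosen after seeing the data.

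No paired analysis was possible because the result comes from peak lists with no test across samples. Without read totals, depth limits cannot be given.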
